A study of Mus musculus with 29 samples.

Results

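Macrophages grown from mouse bone marrow were compared after a day with IL-4 and IL-6 together and after a day with neither cytokine. The comparison holds 10 of the series' 29 arrays, the 5 labelled IL-4 plus IL-6 and the 5 unstimulated arrays with the same replicate numbers, 1 to 5. All cells came from 8-week-old wild-type C57BL/6 mice and had been cultured for 7 days in Teflon bags with 10 ng/ml of CSF-1, on which macrophages depend for growth and survival. CSF-1 stayed in the medium for the final 24 h, when the treated cells also received 10 ng/ml of IL-4 and 10 ng/ml of IL-6 and the unstimulated cells received no further cytokine. The arrays of IL-4 alone and of IL-6 alone (5 each, same doses and time) were fitted together with these 10, to show where the level with both cytokines differed from that with either. Unstimulated replicates 6 to 8 have no partner by number and entered only an alternative fit. The labels do not say whether replicates were separate mice or cultures, so p-values measure the spread between these arrays, which may be partly technical.

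IL-4 acts through its receptor chain IL-4Rα and the transcription factor STAT6, and in macrophages it is known for switching on arginase, resistin-like and chitinase-like proteins, a pattern called alternative activation. IL-6 binds the IL-6 receptor together with gp130, the product of Il6st, and acts mainly through STAT3, which also induces its own inhibitor SOCS3. Secretory cells match the folding capacity of the endoplasmic reticulum (ER) to their load through the unfolded protein response, whose sensors are IRE1 (Ern1), PERK (Eif2ak3) and ATF6, and whose IRE1 branch splices Xbp1. Cathepsins are lysosomal proteases, which macrophages hold in large amounts and can also secrete.

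Values are log2 intensities of probe sets on a 3' expression array, so a difference of 1 is a 2-fold change of the signal. Of 12393 genes on the array, 7010 passed a filter on low values (at least 5 of the 20 arrays above the median of all values, log2 7.00) and were tested with limma, with the replicate number as a block. A gene was called at a Benjamini-Hochberg adjusted p under 0.05. With both cytokines 2721 genes were higher (38.8% of those tested) and 2824 lower (40.3%), together 79.1%, and the median difference over all genes tested was -0.0060. Median centring of the arrays gave 2996 higher and 2584 lower. The values of the 5 and the 5 arrays did not overlap for 61.4% of genes, while 8.89% were called with a difference of at least 1 in either direction (286 higher, 337 lower). Against IL-4 alone 70.1% of genes were called (33.8% higher with both cytokines, 36.3% lower) and against IL-6 alone 75.8% (38.3% higher, 37.5% lower). With both cytokines 21.6% of genes lay above each of the other 3 groups, unstimulated, IL-4 and IL-6, and 23.1% lay below each of them. These shares are the background for every count given for a gene list, and a count near them says nothing particular about the list. The 3 comparisons share the IL-4 plus IL-6 arrays.

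**Figure D1:**
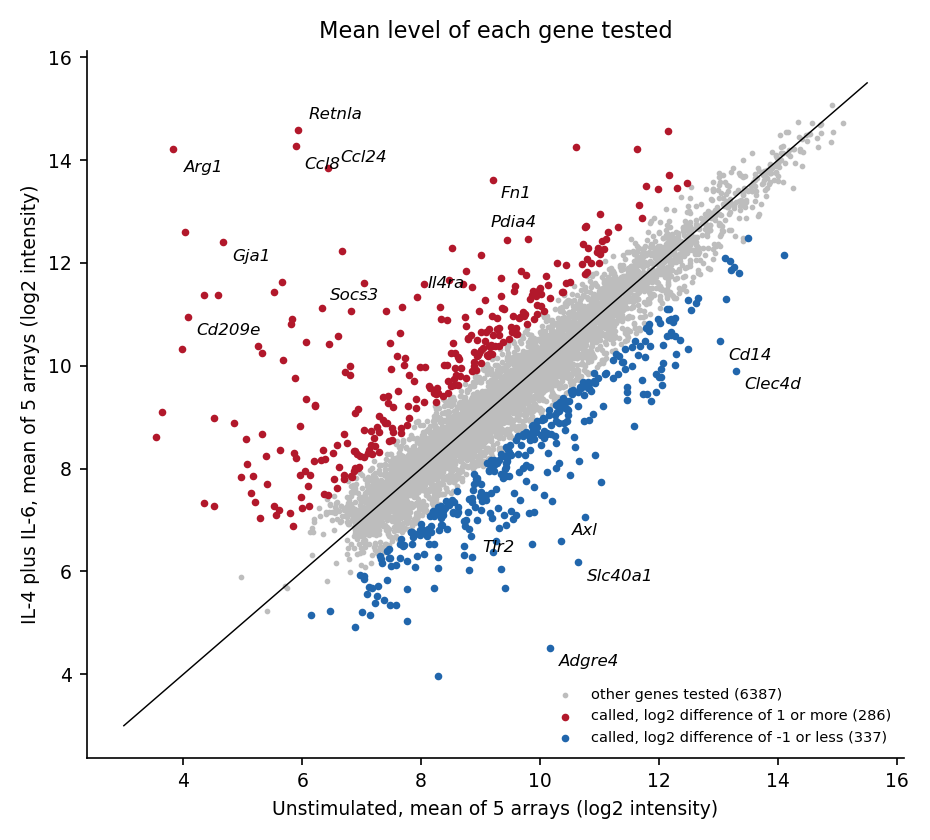
Mean log2 intensity of each of the 7010 genes tested in unstimulated macrophages (x axis) and in macrophages given IL-4 plus IL-6 (y axis), 5 arrays each, with a line of equal level. The 286 genes called with a difference of 1 or more (red) reach farther from the line than the 337 with -1 or less (blue), and Arg1 lies farthest, at 3.83 and 14.21.

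The largest increase was that of Arg1, whose product, arginase 1, splits arginine into ornithine and urea and is a standard marker of IL-4 action in macrophages. Its log2 intensity was 3.63, 3.98, 3.68, 3.83 and 4.04 in unstimulated replicates 1 to 5 and 14.26, 14.18, 14.18, 14.21 and 14.20 in the IL-4 plus IL-6 arrays, so the groups lay far apart and the treated arrays close together. The difference was 10.38 (SE 0.078), with an adjusted p of 3.53e-23 (limma). IL-4 alone gave 11.58 ± 0.21 (SD, n = 5, as for all means with ±), 2.63 below the level with both, and IL-6 alone gave 4.25 ± 0.092, so the level with both cytokines exceeded that with either. No fold is given for genes whose lower group mean is under the filter, as here, because low intensities understate ratios.

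The 15 largest increases all started from an unstimulated mean under the filter and differed in which single cytokine moved them. Retnla (resistin-like alpha, 8.65), Rnase2a (an eosinophil-type ribonuclease, 8.58) and Mgl2 (a galactose-type lectin, 5.91) stood at 14.59, 12.60 and 11.43 with both cytokines, against 14.56, 13.13 and 11.87 with IL-4 alone. Rnase2a and Mgl2 were lower with both cytokines than with IL-4 alone (-0.54 and -0.44), and the difference for Retnla, 0.032, was not called (limma adjusted p = 0.65). Both of these Retnla means lay near the highest value on any of the 20 arrays, 15.10, where a further rise might not show. Gja1, which encodes the gap junction protein connexin 43, behaved the other way round. It read 4.25, 5.04, 4.74, 4.38 and 4.96 without cytokine and 12.30, 12.43, 12.45, 12.35 and 12.47 with both, with 4.33 ± 0.29 under IL-4 and 10.03 ± 0.28 under IL-6. All 5 treated arrays were therefore above every unstimulated one, by 7.73 on average, and above the mean with IL-6 by 2.37.

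For a further set of these genes the level with both cytokines was far above that with either. Ccl8, a chemokine that attracts monocytes and other leukocytes, read 5.48, 6.25, 5.81, 5.96 and 5.96 without cytokine and 14.30, 14.41, 14.27, 14.23 and 14.14 with both. Its means were 6.53 ± 0.24 with IL-4 and 8.72 ± 0.21 with IL-6, so the combination exceeded them by 7.74 and 5.55. Cd209e, a C-type lectin of the DC-SIGN family, stood at 4.08 ± 0.033 unstimulated, 4.48 ± 0.083 with IL-4 and 4.57 ± 0.12 with IL-6, all under the filter, and at 10.95 ± 0.12 with both. Its relative Cd209a, which is also a dendritic cell marker, rose by 4.42, from 5.68 to 10.10, with means of 5.66 and 6.03 under the single cytokines. The scavenger receptor for haemoglobin, Cd163, was also highest with both, with 4.84 unstimulated, 5.14 and 4.68 with IL-4 and IL-6, and 8.88 ± 0.29 with both. Ch25h, which makes 25-hydroxycholesterol, reached 10.39 ± 0.27 with both cytokines against 5.66 and 6.31 with either. Cd209e, Cd209a, Cd163 and Ch25h passed the filter only through the IL-4 plus IL-6 arrays, so they could only be seen to rise. Chil4, a chitinase-like protein, and Pdcd1lg2, the ligand PD-L2 of the inhibitory receptor PD-1, rose by 7.03 and 5.97 and exceeded IL-4 alone by 4.57 and 2.62. Cdh1 (E-cadherin, 5.45) and the helicase gene Ddx4 (6.35) exceeded IL-4 alone by 1.92 and 2.07, while both read under log2 4.0 with IL-6 alone (3.75 and 3.99).

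**Figure D2:**
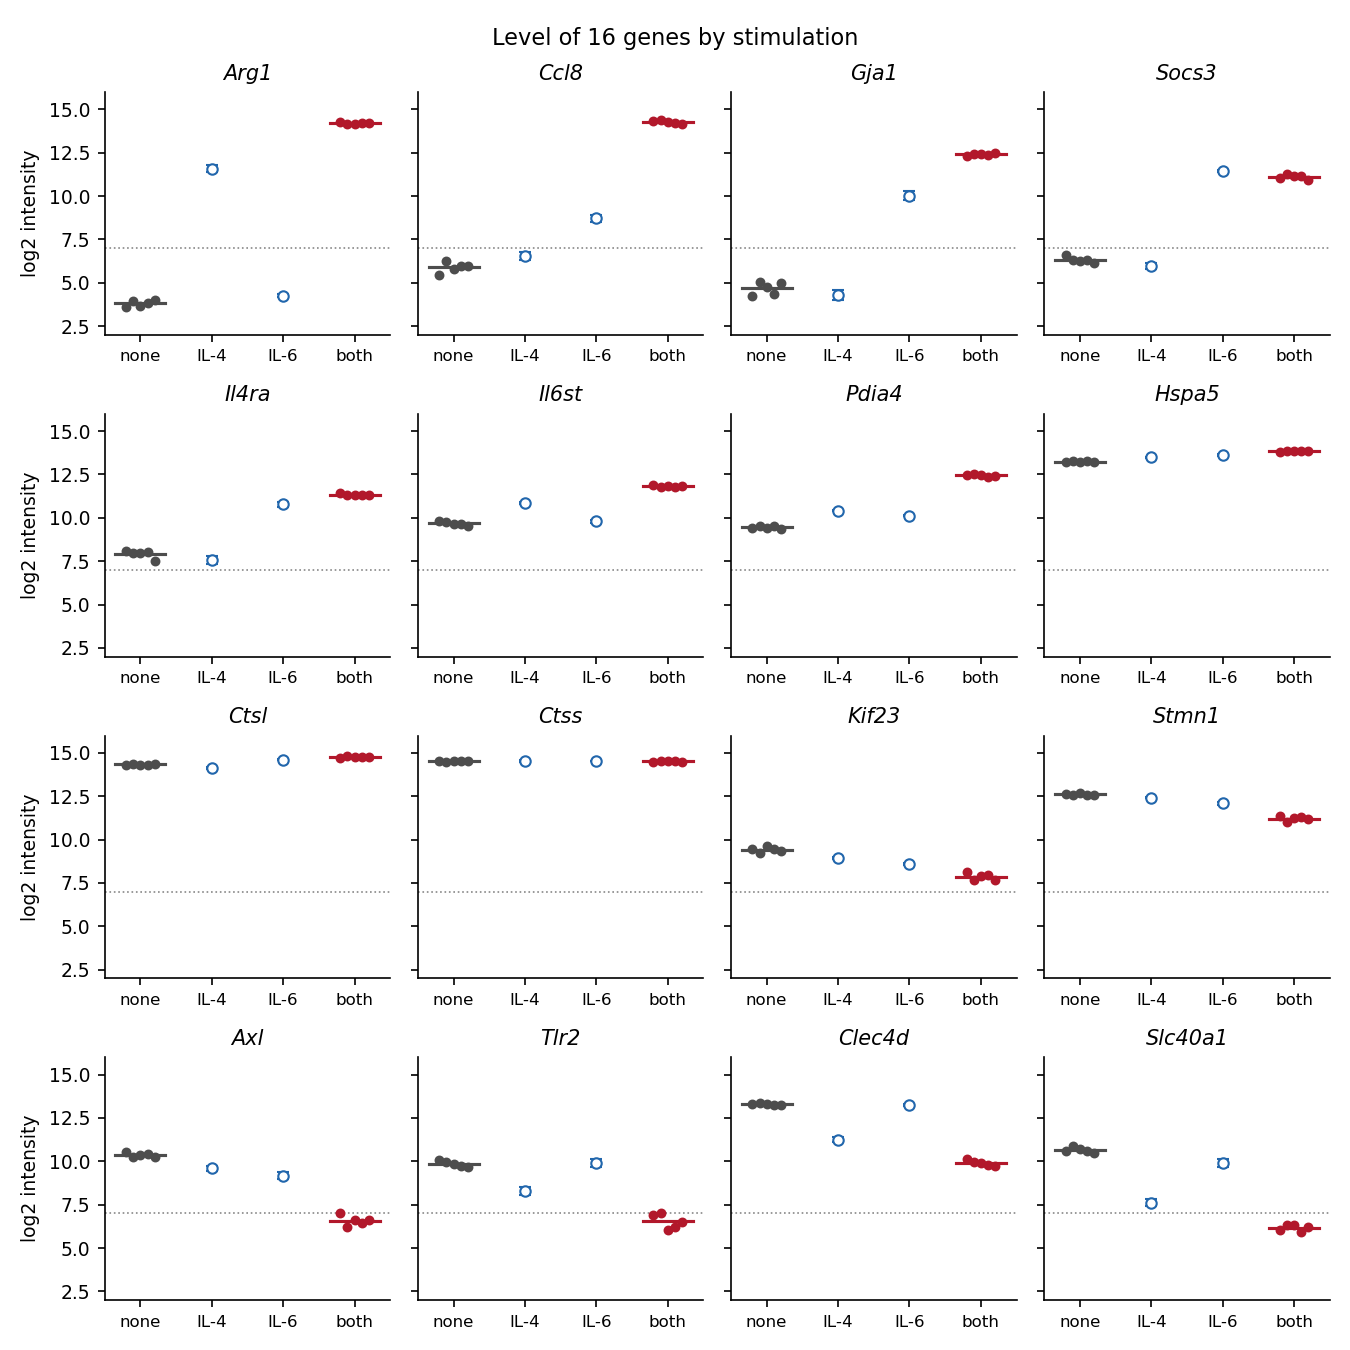
Log2 intensity (y axis) of 16 genes without further cytokine, with IL-4, with IL-6 and with both; filled points are the 5 arrays of the unstimulated (grey) and IL-4 plus IL-6 (red) groups with their mean as a bar, open circles are the mean ± SD of the 5 arrays of each single cytokine, and the dotted line is the filter at log2 7.00. Ccl8 rises above both single cytokines (14.27 with both), Socs3 does not rise above IL-6 alone (11.11 against 11.44), Ctss is flat near 14.50, and Axl and Kif23 are lowest with both (6.59 and 7.86).

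Of the 33 tested genes on the alternative activation list, 27 rose and 3 fell, with a median difference of 2.66 (between 2.42 and 2.84 in the 5 pairs of arrays). Over all genes tested the shares were 38.8% and 40.3% and the median -0.0060. The list is made of genes known to respond to IL-4, and its median with IL-4 alone was 2.62. Against IL-4 alone 14 members were higher and 18 lower with both cytokines, where 33.8% and 36.3% of all genes were. The chemokine genes Ccl17 and Ccl22 and the transcription factor gene Irf4 reached 8.44, 9.14 and 9.74 with IL-4 alone but 5.89, 7.14 and 7.10 with both. The unstimulated means were 4.97, 6.56 and 6.76. Ccl17 was thus under the filter in both groups compared, so its call as higher rests on weak signals. Egr2, a transcription factor, was not called against unstimulated cells (0.0094, adjusted p = 0.883), although it differed by -0.99 from IL-4 alone and by 1.18 from IL-6 alone. The nuclear receptor Pparg was lower with both cytokines, by 0.44, and lower than with IL-4 alone (-0.90).

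Genes on either side of arginase moved as well. The 18 tested genes of arginine and polyamine metabolism comprised 14 that rose and 4 that fell, with a median of 0.34. Slc7a2, a transporter of arginine, read 5.83, 5.99, 6.08, 5.78 and 5.44 unstimulated and 10.84, 10.88, 10.92, 10.86 and 11.06 with both cytokines, groups that did not overlap, and rose by 5.09 (SE 0.10). Arg2, the mitochondrial arginase, rose by 2.38 to 7.52 ± 0.21, and here IL-6 alone (6.94) came closer to the combination than IL-4 alone (5.34). Odc1 and Srm, which turn ornithine into putrescine and putrescine into spermidine, rose by 1.15 and 1.04. Aldh18a1, an enzyme of proline and ornithine synthesis, rose by 1.45, and Gatm, which uses arginine to make the creatine precursor, rose by 1.77, 3.41-fold. Smox, which oxidises spermine back to spermidine, fell by 1.17.

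Among the receptors of the 2 cytokines, the IL-4 receptor chain and gp130 rose and the IL-6 receptor fell. Il4ra read 8.10, 7.98, 8.00, 8.05 and 7.54 without cytokine and 11.43, 11.34, 11.31, 11.33 and 11.31 with both, a difference of 3.41 (SE 0.098) or 10.7-fold. The 5 treated arrays lay above all unstimulated ones, and unstimulated replicate 5 was the lowest. IL-6 alone gave 10.78 ± 0.16 and IL-4 alone 7.59 ± 0.22. Il6st read 9.81, 9.77, 9.64, 9.65 and 9.52 and 11.92, 11.80, 11.83, 11.78 and 11.84, also without overlap, and rose by 2.16 (4.46-fold) to a level above that with IL-4 (10.85) or IL-6 (9.80). Il6ra fell by 0.91, from 9.72 ± 0.22 to 8.81 ± 0.17. Il13ra1, the chain that pairs with IL-4Rα in the second type of IL-4 receptor, fell by 1.23. The kinase gene Jak2 rose 5.14-fold (2.36) and its level exceeded those with IL-4 and IL-6 by 1.39 and 2.20. Stat3 rose by 0.76, from 9.85 ± 0.072 to 10.61 ± 0.035, and Stat6 fell by 0.44, from 10.87 ± 0.029 to 10.43 ± 0.086.

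Over all 34 tested receptor chains, kinases and STATs, 15 were higher and 16 lower, with a median of -0.011, so the list as a whole had no prevailing direction. Il1r1, the signalling receptor of IL-1, rose by 3.34 from an unstimulated mean of 5.33. Some receptors of other factors fell, among them Tgfbr1 for TGF-beta (-2.10), Tnfrsf1b for TNF (-1.98), Il10ra for IL-10 (-1.28) and Ifngr1 for interferon gamma (-1.20), while the other TNF receptor, Tnfrsf1a, rose by 0.32. Csf1r, the receptor of the growth factor present in every culture, changed by -0.16 from a mean of 14.38. Lifr, a further partner of gp130, stood at 9.67 with IL-6 alone but at 7.83 with both cytokines, and its difference from the unstimulated 7.71 was not called (adjusted p = 0.12), whereas the mean of its probe sets was (0.45).

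On the list of cytokine feedback inhibitors 11 of 18 tested genes rose and 5 fell, with a median of 0.21. Socs3, the inhibitor of gp130 signalling, read 6.62, 6.32, 6.26, 6.34 and 6.12 without cytokine and 11.04, 11.25, 11.17, 11.17 and 10.95 with both, and the groups did not overlap. It rose by 4.78 (SE 0.071), and its level was -0.32 relative to IL-6 alone (adjusted p = 0.000581). Socs2, Cish and Socs1, further inhibitors of JAK and STAT signalling, rose by 5.00, 3.02 and 2.68, and exceeded the level with IL-4 alone by 0.52, 0.51 and 0.71. Ptpn6, which encodes the phosphatase SHP-1, fell by 1.11.

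To show what the promoters of the strongly raised genes hold, the RefSeq windows of the GRCm38.p6 build (250 bases before to 50 bases after each transcript start) were searched on both strands for the spacings at which STAT dimers are known to bind, TTCNNNGAA and, preferred by STAT6, TTCNNNNGAA. TTCNNNGAA occurs in 8.30% of all 32851 windows and TTCNNNNGAA in 6.95%. Counted by gene, as below, they occur in 7.99% and 6.74% of the 5798 tested genes with a window. Of the 15 genes with the largest increase 11 have a window, and 3 of them hold the wider spacing (Retnla, Cd209e and Pdcd1lg2) and 1 the narrower (Chil4). Of the 11 feedback inhibitors that rose 7 have a window, and Socs3, Cish and Zfp36 hold the narrower spacing. Of the 24 IL-6 and STAT3 response genes that rose 22 have a window, 2 with the narrower and 1 with the wider spacing, and of the 9 that fell 7 have one, 3 with the narrower and 2 with the wider. A match says only that the letters are there. These 80-base stretches upstream of the start are printed 5′ to 3′ on the strand of the gene, with the match in capitals, for Socs3 (chr11:117969477-117969556, minus strand), Retnla (chr16:48842429-48842508, plus), Cd209e (chr8:3854321-3854400, minus) and Pdcd1lg2 (chr19:29410802-29410881, plus):
Socs3: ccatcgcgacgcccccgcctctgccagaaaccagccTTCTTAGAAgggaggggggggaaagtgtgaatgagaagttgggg
Retnla: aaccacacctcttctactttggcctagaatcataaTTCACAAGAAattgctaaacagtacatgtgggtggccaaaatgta
Cd209e: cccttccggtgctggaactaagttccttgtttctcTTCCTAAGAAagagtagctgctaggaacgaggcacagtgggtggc
Pdcd1lg2: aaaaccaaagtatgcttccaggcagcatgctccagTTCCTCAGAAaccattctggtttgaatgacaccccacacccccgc

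The list of genes known to respond to IL-6 and STAT3 had 24 members that rose and 9 that fell out of 34, with a median of 0.76. With IL-6 alone the median was 0.87 and with IL-4 alone -0.22. Relative to IL-6 alone 16 of the members were higher with both cytokines and 16 lower, where 38.3% and 37.5% of all genes were. Ednrb, the endothelin receptor B, rose by 4.92, from 5.33 to 10.25, and was 1.32 above IL-6 alone. Timp1, an inhibitor of metalloproteinases, rose by 4.57 (SE 0.085), which is 23.7-fold, and was 2.06 above IL-6 alone. Some acute-phase and inflammatory members were highest with IL-6 alone. Saa3 (serum amyloid A3) had means of 11.73 with IL-6, 8.82 with both and 8.35 unstimulated, and Hp (haptoglobin) 7.52, 5.81 and 6.41. Il1rn, the antagonist of the IL-1 receptor, stood at 9.55, 8.33 and 8.61. The differences of Saa3 and Il1rn between both cytokines and none, 0.47 and -0.28, were called, but not with all 29 arrays and no pairing (0.14 and -0.043, limma adjusted p = 0.582 and 0.776). Vegfa and Fos fell by 1.81 and 1.69.

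Chemokine genes moved in both directions. Of 19 tested, 12 rose and 6 fell, with a median of 0.46. The monocyte chemoattractants Ccl8, Ccl12, Ccl7 and Ccl2, neighbours in one gene cluster, rose by 8.38, 6.79, 5.56 and 3.15. For Ccl12 the mean with both, 11.38 ± 0.17, compared with 4.83 for IL-4 and 7.86 for IL-6, and for Ccl7 12.23 ± 0.24 compared with 8.80 and 7.98. Ccl24, an eosinophil attractant, rose by 7.42 to 13.85 ± 0.13, above IL-4 alone by 3.83. The neutrophil attractants Cxcl2 and Cxcl1 fell by 2.52 and 1.99, and the interferon-induced Cxcl10 by 1.80. Of the 13 chemokine and chemoattractant receptors tested 5 rose and 8 fell (median -0.52). Ccr2, the receptor of the Ccl2 family on monocytes, fell 5.70-fold, from 10.66 ± 0.14 to 8.15 ± 0.23, while Ccr1 rose by 2.21. Cx3cr1, the fractalkine receptor, fell by 2.77, and C5ar1, the receptor of complement C5a, by 2.49 (5.61-fold).

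Most genes of protein folding in the ER rose and stood highest with both cytokines. Of 32 chaperones and disulfide isomerases tested, 27 rose and 1 fell, with a median of 0.67 (between 0.58 and 0.71 in the 5 pairs). For 24 of the 32 the level with both cytokines was called above unstimulated, IL-4 and IL-6 alike, as for 21.6% of all genes, and the list medians were 0.29 with IL-4 alone and 0.27 with IL-6 alone. Pdia4, a protein disulfide isomerase, moved most. It read 9.43, 9.53, 9.40, 9.52 and 9.35 unstimulated and 12.47, 12.51, 12.45, 12.38 and 12.42 with both, with no overlap, and rose by 3.00 (SE 0.037) or 8.01-fold, while IL-4 gave 10.41 ± 0.039 and IL-6 10.14 ± 0.055. Pdia6 rose 2.63-fold, from 11.31 ± 0.047 to 12.71 ± 0.061. Manf, a secreted ER stress protein, rose 2.48-fold, and Sdf2l1, Creld2, Dnajc3 and Hyou1, further ER folding factors, rose by 1.29, 1.28, 1.18 and 1.12. Hspa5, the central ER chaperone BiP, read 13.21, 13.25, 13.21, 13.28 and 13.25 and 13.81, 13.86, 13.85, 13.83 and 13.83. It rose by 0.60 (SE 0.027) or 1.51-fold, a smaller change whose groups still did not overlap. Prdx4, an ER peroxiredoxin, was the member that fell, by 0.42.

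The sensors and factors of the unfolded protein response moved less evenly. Of 18 tested 11 rose and 3 fell, with a median of 0.28. Ern1, the gene of IRE1, did not pass the filter, with means of 6.79 ± 0.16 with both cytokines and 6.39 ± 0.20 unstimulated, and was not tested. Xbp1 read 12.41, 12.44, 12.42, 12.42 and 12.36 unstimulated and 12.51, 12.74, 12.72, 12.69 and 12.71 with both, and rose by 0.26 (SE 0.036), 1.20-fold. The values did not overlap, and the array read both spliced and unspliced transcripts as 1 value. Eif2ak3 (PERK) rose by 0.31 and Atf6 fell by 0.81. Atf4, the transcription factor downstream of PERK, rose by 0.71. Chac1 and Trib3, both known ATF4 targets, rose by 1.74 and 1.10, and Ddit3 (CHOP) was not called (0.15, adjusted p = 0.0568), but it was after median centring (0.18, limma adjusted p = 0.0168), with all 29 arrays (0.20), with only the 10 arrays, with the 75th percentile filter, and without replicate 2 or 5. Wfs1, an ER membrane protein, rose 2.13-fold, and Bcl2l11, which encodes the death-promoting protein BIM, fell by 0.97. Chac1 passed the filter only through the IL-4 plus IL-6 arrays (mean 7.27), so it could only be seen to rise.

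Most genes of the later steps of the secretory route rose as well. Of 54 genes of ER entry and N-glycosylation 44 rose and 5 fell (median 0.37), and 40 stood above all 3 other groups. Gmppb, which makes GDP-mannose, rose 2.39-fold, Stt3b, a catalytic subunit of the oligosaccharyltransferase, 2.22-fold, and Ssr2, of the translocon-associated complex, 2.14-fold. Sec61a1, the channel of the translocon, rose by 0.75. Of 58 genes of transport between ER and Golgi 50 rose and 5 fell (median 0.34), with 45 above all 3 other groups. Sec24d and Sec23b, coat subunits of the vesicles that leave the ER, rose 1.77-fold and 1.65-fold, Bet1, a fusion protein of this route, 1.77-fold, and Tmed10, a cargo receptor, fell by 0.44. ER-associated degradation had 18 genes that rose and 1 that fell among 22 (median 0.22), led by Herpud1 (1.63-fold) and Selenos (1.57-fold). A second probe set of Sel1l, an adaptor of this degradation, fell by 0.13 where the one used rose by 0.60. Likewise, second probe sets of Ufd1 and Derl2 fell by 0.21 and 0.12 where those used rose by 0.12 and 0.27. For Gosr1, of the transport list, a second probe set rose by 0.54 where the one used fell by 0.17.

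**Figure D3:**
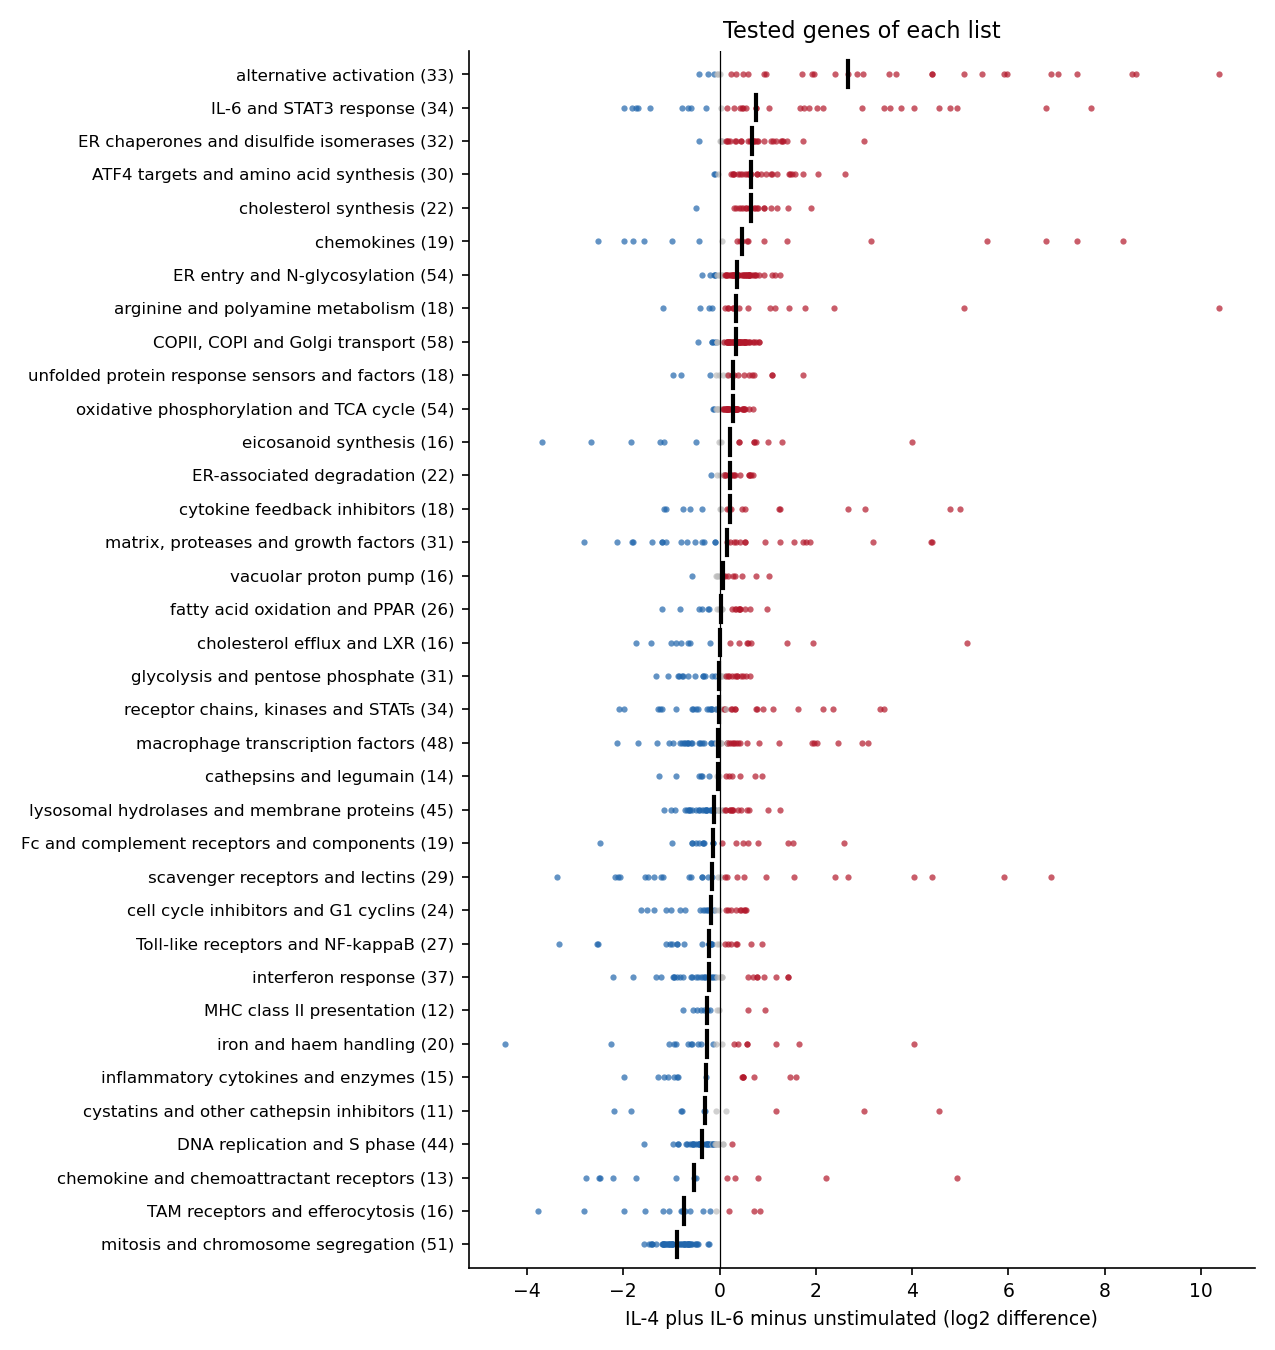
Log2 difference (x axis) of every tested gene on each of 36 lists between IL-4 plus IL-6 and unstimulated macrophages, with red for genes called higher, blue for genes called lower, grey for genes not called, a black bar at the list median and the number tested in brackets. The alternative activation list has the highest median (2.66) and a wide spread, the ER chaperone list (median 0.67) lies mostly to the right of 0, and the mitosis list (-0.89) lies to the left of 0 throughout.

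The ER stress element, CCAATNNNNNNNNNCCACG, to which ATF6 and XBP1 are known to bind with NF-Y, was searched in the same windows on both strands. It occurs in 39 of 32851 windows (0.119%) and in those of 12 of the 5798 tested genes that have one (0.207%). Of the 27 ER chaperone and isomerase genes that rose 23 have a window, and 7 of these hold the element. Of the 12 tested genes 9 rose, Pdia6 (given above), Creld2 (1.28), Dnajc3 (1.18), Calr (0.63), Syvn1 (0.60), Hspa5 (0.60), Alg12 (0.54), Hsp90b1 (0.44) and Canx (0.16). Ero1b and Adcy3 were not called (0.051 and 0.12), and Pan2 fell by 0.63. With the mean of all probe sets of a gene Ero1b and Adcy3 were called, in opposite directions (-0.28 and 0.31). Ero1b was called higher after median centring (0.087). Adcy3 was also called higher with only the 10 arrays (0.41), with all 29 arrays (0.37), with array weights (0.16) and without replicate 1 (0.20). Pdia4, with the largest increase of the list, has a window without this spelling. Stretches of 80 bases upstream of the start follow, 5′ to 3′ on the strand of the gene and with the element in capitals, to show the shared letters and that it lies in either orientation, for Pdia6 (chr12:17266460-17266539, plus strand), Creld2 (chr15:88819489-88819568, plus), Dnajc3 (chr14:118937796-118937875, plus), Calr (chr8:84847045-84847124, minus), Hspa5 (chr2:34771994-34772073, plus) and Canx (chr11:50325770-50325849, minus):
Pdia6: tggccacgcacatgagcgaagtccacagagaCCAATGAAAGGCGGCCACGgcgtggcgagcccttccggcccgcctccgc
Creld2: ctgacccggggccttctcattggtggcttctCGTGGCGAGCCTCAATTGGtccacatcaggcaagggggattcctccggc
Dnajc3: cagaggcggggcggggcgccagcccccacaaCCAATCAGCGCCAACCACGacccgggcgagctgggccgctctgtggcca
Calr: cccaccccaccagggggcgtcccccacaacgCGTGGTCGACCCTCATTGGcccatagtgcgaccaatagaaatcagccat
Hspa5: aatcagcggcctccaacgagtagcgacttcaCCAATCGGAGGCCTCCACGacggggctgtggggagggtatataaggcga
Canx: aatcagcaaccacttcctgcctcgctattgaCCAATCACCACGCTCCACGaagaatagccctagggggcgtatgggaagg

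Cathepsin genes moved in both directions. Of 14 tested 6 rose and 6 fell, with a median of -0.031, which became 0.0049 after median centring of the arrays and 0.062 with a filter at the 75th percentile. Ctsl read 14.32, 14.37, 14.31, 14.30 and 14.36 unstimulated and 14.68, 14.81, 14.74, 14.77 and 14.73 with both, which did not overlap, and rose by 0.42 (SE 0.028), 1.33-fold. IL-4 alone gave 14.15 ± 0.053 and IL-6 alone 14.62 ± 0.029. Ctsz rose by 0.19. Ctsb rose by 0.14 on the probe set used, while a second probe set fell by 0.14, so the array gives no single direction for it. Ctss, which cuts the invariant chain of MHC class II, read 14.52, 14.49, 14.52, 14.54 and 14.53 and 14.46, 14.54, 14.51, 14.53 and 14.47, with overlap, and was not called (-0.018, adjusted p = 0.541). The means of these 4 genes lay between log2 14.08 and 14.75 in both groups, near the highest value on any of the 20 arrays, 15.10. Ctsk, a collagen-cutting cathepsin, rose 1.83-fold and Lgmn, the asparaginyl protease legumain that processes cathepsins, 1.67-fold. Napsa, an aspartic protease, fell 2.38-fold and Ctsd fell by 0.42.

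Of 11 tested genes on a list of cystatins and other protease inhibitors 3 rose and 6 fell, and the median of -0.30 turned to 0.051 when no filter was applied. The list is wider than inhibitors of cathepsins, and Timp1 and Timp2 (1.16), which block metalloproteinases, are 2 of the 3 that rose. Cst7 (cystatin F), an inhibitor of lysosomal cathepsins, rose by 3.01, from 6.21 to 9.22. Ctla2b, related to cathepsin propeptides, fell 4.54-fold against unstimulated cells and was 1.23 above IL-4 alone. Serpinb6b fell 3.55-fold. Other lysosomal hydrolases and membrane proteins fell more often than they rose, 26 against 13 of 45, with a median of -0.12 (between -0.16 and -0.12 in the pairs). Sort1, a sorting receptor, and Lipa, the lysosomal acid lipase, fell 2.22-fold and 2.02-fold, and Acp5 and Pla2g15, a phosphatase and a phospholipase, rose 2.39-fold and 2.01-fold. Of 16 subunits of the pump that acidifies lysosomes 8 rose and 1 fell (median 0.067), with Atp6v0a1 up 2.03-fold and Tcirg1, an alternative form of the same subunit, down by 0.58.

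Genes of amino acid and sterol synthesis rose with few exceptions. Of 30 tested ATF4 targets and amino acid genes 27 rose and 2 fell, with a median of 0.64, and 23 stood above all 3 other groups. Atf5, a transcription factor of the same response, rose 6.11-fold, from 7.59 ± 0.10 to 10.20 ± 0.11, against 8.29 and 8.20 with the single cytokines. Nupr1, a stress-induced chromatin protein, rose 4.11-fold, and Asns, asparagine synthetase, 2.97-fold. Of 22 genes of cholesterol synthesis 21 rose and 1 fell (median 0.64), and 18 stood above all 3 other groups. Mvd, which makes isopentenyl diphosphate, read 7.61, 7.60, 7.62, 7.76 and 7.46 unstimulated and 9.50, 9.59, 9.54, 9.51 and 9.38 with both. The groups did not overlap and the difference was 3.71-fold, with means of 8.32 and 8.37 for IL-4 and IL-6. Fdps, Lss and Pmvk, other enzymes of the pathway, rose 2.68-fold, 2.27-fold and 2.10-fold. Scap, which escorts the SREBP transcription factors, was the member that fell, by 0.48. Genes of cholesterol efflux were split, 8 higher and 8 lower of 16, with Scd2, a fatty acid desaturase, up 3.82-fold and Cyp27a1, which makes 27-hydroxycholesterol, down 2.68-fold.

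Most mitochondrial genes rose by small amounts, and few exceeded IL-4 alone. Of 54 genes of oxidative phosphorylation and the TCA cycle 46 rose and 2 fell (median 0.27), but against IL-4 alone 4 were higher and 24 lower, and the median with IL-4 alone was 0.34. Only 3 of the 54 stood above all 3 other groups. Atp5b, a subunit of ATP synthase, rose 1.44-fold, Ndufc1, of complex I, 1.53-fold, and Fh1, fumarase, 1.62-fold. For Atp5c1, of ATP synthase, and Ndufs4, of complex I, the probe sets used rose by 0.098 and 0.13. Second probe sets of these 2 genes fell by 0.37 and 0.38, so the array gives no single direction for them. Glycolysis and the pentose phosphate pathway had 11 genes that rose and 13 that fell among 31 (median -0.0054), with Aldoc, an aldolase, down 2.49-fold and Taldo1, transaldolase, down 1.80-fold. Fatty acid oxidation had 10 genes that rose, 6 that fell and 10 that were not called (median 0.031). Ppargc1b, a coactivator known to be induced by IL-4, stood at 8.91 ± 0.071 with both cytokines, between the unstimulated 7.92 and the 10.16 of IL-4 alone, and Cpt1a, which carries fatty acids into mitochondria, fell 1.78-fold.

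**Figure D4:**
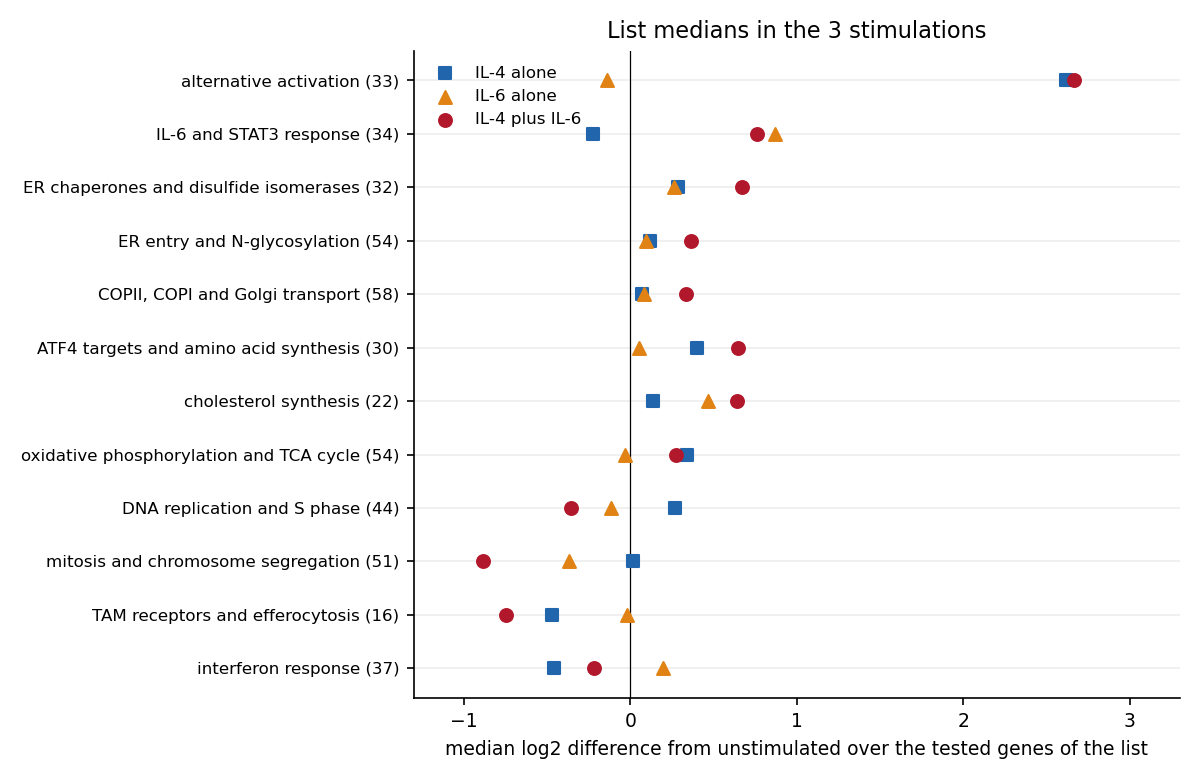
Median log2 difference from unstimulated (x axis) over the tested genes of 12 lists with IL-4 alone (squares), IL-6 alone (triangles) and IL-4 plus IL-6 (circles), with the number tested in brackets; all 3 share the unstimulated arrays. The ER chaperone median is highest with both cytokines (0.67) and the mitosis median lowest (-0.89), while the alternative activation medians of IL-4 alone (2.62) and of both (2.66) nearly coincide.

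Genes of cell division fell, and nearly all lay lower with both cytokines than in any other group. All 51 tested genes of mitosis and chromosome segregation were called lower than in unstimulated cells, with a median of -0.89 (between -1.05 and -0.72 in the 5 pairs), and 50 of them lay below each of unstimulated, IL-4 and IL-6, as did 23.1% of all genes. The exception was Foxm1, which did not differ by the test from IL-6 alone (-0.079, adjusted p = 0.152). The list median was 0.014 with IL-4 alone and -0.37 with IL-6 alone. Kif23, a kinesin of cytokinesis, read 9.48, 9.23, 9.62, 9.47 and 9.35 unstimulated and 8.15, 7.67, 7.88, 7.95 and 7.67 with both. No treated array reached an unstimulated one, and the fall was 1.57 on the log2 scale, 2.96-fold. Cenpf, a kinetochore protein, Hmgb2, a chromatin protein, and Stmn1, a microtubule regulator, fell 2.76-fold, 2.68-fold and 2.65-fold. The smallest falls were those of Foxm1 (-0.23, a transcription factor of the mitotic genes) and Bub3 (-0.24, of the spindle checkpoint).

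DNA replication genes fell as well. Of 44 tested 34 fell and 1 rose (Dut, 0.25), with a median of -0.35. The call of Dut was lost with all 29 arrays and no pairing (0.17, limma adjusted p = 0.0513). With IL-4 alone the list median was 0.27, and all 44 genes were lower with both cytokines than with IL-4. Tk1, thymidine kinase, fell 2.96-fold, from 9.38 ± 0.21 to 7.81 ± 0.22, and Rrm2, of ribonucleotide reductase, 1.95-fold. Among cell cycle inhibitors and G1 cyclins 9 rose and 13 fell of 24 (median -0.18). The inhibitors Cdkn1c and Cdkn1b were among those that fell (-1.64 and -1.12), as were the antiproliferative Btg2 and Btg1 (-1.51 and -1.35) and cyclin D1, Ccnd1 (-1.01). Cdkn1a (p21) rose by 0.53. In RNA from whole cultures, fewer dividing cells and less of these transcripts per cell cannot be told apart.

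Promoter windows of the dividing-cell genes were searched for TTTGAA, the cell cycle homology region bound by the DREAM complex, and for the E2F spellings TTTCCCGC, TTTGGCGC, TTTCGCGC and TTTGCCGC, on both strands. TTTGAA occurs in 17.9% of all windows and the E2F spellings in 2.26%. Counted by gene, they occur in 14.1% and 5.16% of the tested genes with a window. Of 44 mitosis genes that fell and have a window 32 hold TTTGAA and 3 an E2F spelling, while of 28 replication genes that fell and have one 3 hold TTTGAA and 12 an E2F spelling. To show both, 80-base stretches upstream of the start follow, 5′ to 3′ on the strand of the gene, with the matches of its own list in capitals, for the mitosis genes Prc1 (chr7:80294396-80294475, plus strand, -1.17), Ube2c (chr2:164769849-164769928, plus, -1.05) and Ncapg (chr5:45669845-45669924, plus, -1.04), and the replication genes Mcm5 (chr8:75109322-75109401, plus, -0.61) and Mcm6 (chr1:128359741-128359820, minus, -0.57), where spellings overlap on the 2 strands:
Prc1: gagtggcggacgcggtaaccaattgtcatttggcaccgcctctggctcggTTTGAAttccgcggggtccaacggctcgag
Ube2c: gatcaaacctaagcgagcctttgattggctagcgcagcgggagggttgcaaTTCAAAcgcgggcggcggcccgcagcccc
Ncapg: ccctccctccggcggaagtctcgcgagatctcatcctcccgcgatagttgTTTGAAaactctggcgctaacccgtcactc
Mcm5: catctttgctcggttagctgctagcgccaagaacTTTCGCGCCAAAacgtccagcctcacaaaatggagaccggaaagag
Mcm6: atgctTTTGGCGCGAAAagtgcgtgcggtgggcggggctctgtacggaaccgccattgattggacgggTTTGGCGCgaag

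Genes by which macrophages sense microbes and take up dying cells were among the largest decreases. Axl, a receptor that recognises phosphatidylserine on dying cells through the bridging protein Gas6, read 10.51, 10.27, 10.34, 10.41 and 10.23 unstimulated and 7.03, 6.21, 6.63, 6.45 and 6.61 with both. The treated values lay far below the others, around or under the filter, and the difference was -3.77 (SE 0.075). The single cytokines gave 9.61 and 9.17. Its relative Mertk rose by 0.19 and Gas6 by 0.72. Of 16 tested genes of this list 3 rose and 12 fell (median -0.75), among them Thbs1, thrombospondin (-2.82), and Cd300a and Stab1, both lipid-binding receptors (3.96-fold and 2.91-fold).

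Tlr2, the Toll-like receptor of bacterial lipoproteins, read 10.07, 9.96, 9.84, 9.74 and 9.70 unstimulated and 6.90, 7.02, 6.03, 6.21 and 6.50 with both, and fell by 3.33. Its level with IL-6 alone was 9.92 and with IL-4 alone 8.30. The co-receptor Cd14 fell 5.84-fold, from 13.02 ± 0.043 to 10.48 ± 0.18, and Nfkbiz, an NF-kappaB cofactor, fell by 2.53, while Tlr4 rose by 0.88. Over the 27 tested genes of this list 7 rose and 18 fell (median -0.21). Inflammatory cytokines and enzymes were split 7 to 8, with a median of -0.28 that turned positive without the filter (0.020) and with one at the 75th percentile (0.47). Among them were Tnf, 2.41-fold lower, Il16, a chemoattractant of CD4 cells, with a difference of -1.99, and Cd40, a costimulatory receptor, 2.99-fold higher. Of 37 interferon response genes 8 rose and 24 fell (median -0.22), and the antiviral Ifit3 fell by 2.22 whereas Usp18, which restrains interferon signalling, rose 2.67-fold. MHC class II genes had 2 higher and 8 lower of 12 (median -0.26). For Ciita, their master regulator, and H2-Eb1 the 2 groups overlapped although all 5 pairs fell, with 8.16 ± 0.48 against 7.40 ± 0.40 and 12.92 ± 0.27 against 12.36 ± 0.21. The call of Ciita was lost when all 29 arrays were fitted with 8 unstimulated ones and without the pairing (-0.50, limma adjusted p = 0.0615).

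Lectins and scavenger receptors moved in both directions, 12 higher and 15 lower of 29 (median -0.15). The rise of Cd209e, Mgl2, Cd209a and Cd163 is given above, and the mannose receptor Mrc1 rose by 2.40. Clec4d, which senses mycobacterial glycolipids, read 13.30, 13.34, 13.30, 13.24 and 13.26 unstimulated and 10.16, 9.98, 9.91, 9.77 and 9.71 with both. The groups were well apart and the fall was 10.4-fold. Its relatives Clec4n and Clec4e fell by 2.17 and 2.06. Fc and complement receptors had 8 higher and 11 lower of 19 (median -0.13), and Fcgr2b, the inhibitory receptor of IgG, rose 6.01-fold to 14.21 ± 0.067, whereas Fcgr1, an activating one, fell by 0.43. Fcgrt, the recycling receptor of IgG, rose 2.68-fold.

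The strongest decrease was that of Adgre4, an adhesion receptor of the F4/80 family, with 10.36, 10.42, 10.17, 10.00 and 9.89 unstimulated and 4.62, 4.51, 4.17, 4.88 and 4.39 with both, a difference of -5.65 (SE 0.14) and no overlap. IL-4 alone gave 6.38 and IL-6 alone 9.04. Slc40a1, the iron exporter ferroportin, read 10.60, 10.86, 10.72, 10.58 and 10.47 and 6.06, 6.33, 6.32, 5.95 and 6.24. It fell by 4.46 and was lower than with IL-4 alone (7.62). Slc11a1, a metal transporter of phagosomes, fell 4.75-fold and the transferrin receptor Tfrc rose 3.14-fold, and its difference from IL-4 alone, -0.039, was not called (adjusted p = 0.506). The list of iron and haem handling was split 7 to 11 (median -0.26). The other large decreases included Nptx1, a secreted pentraxin (-4.32), Arap3, a regulator of small GTPases (-3.72), Ramp1, a partner of the CGRP receptor (-3.30), Sema4d, a semaphorin (9.77-fold), Cpe, carboxypeptidase E (6.69-fold), Rcbtb2 (6.73-fold) and Pcp4l1 (7.15-fold). Sema4d read 7.74 ± 0.25 with both, against 11.03 unstimulated, 10.35 with IL-4 and 10.50 with IL-6.

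Enzymes of prostaglandins and other lipid mediators moved in both directions, 8 higher and 6 lower of 16 (median 0.22). Hpgd, which inactivates prostaglandins, fell by 3.70, from 10.75 ± 0.20 to 7.06 ± 0.16, and Hpgds, which makes prostaglandin D2, fell 6.36-fold. Pla2g7, which degrades platelet-activating factor, fell 3.60-fold, and Cbr2, a carbonyl reductase, rose by 3.99. Matrix and growth factor genes were split 16 to 15 (median 0.16). Fn1, fibronectin, rose 21.4-fold, from 9.20 ± 0.21 to 13.62 ± 0.054, Pdgfc, a platelet-derived growth factor, by 4.39 and Hbegf, a ligand of the EGF receptor, by 3.19, while Pdgfb fell by 1.79. Of 48 transcription factor genes 18 rose and 21 fell (median -0.025). Tfec, a macrophage factor of the MITF family, rose 8.53-fold (11.84 ± 0.060 with both, 9.84 with IL-4, 10.01 with IL-6), Nfil3 7.83-fold and Klf4 5.53-fold, and Id3, an inhibitor of helix-loop-helix factors, fell by 2.14.

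The labelled cell type was checked against its markers. All 11 macrophage identity genes on the array were above the filter in both groups, with Csf1r, Cd68 and Adgre1 (F4/80) at 14.22, 13.75 and 13.20 with both cytokines, and 9 of them were lower there (mean over the list 12.11 to 12.28 per array, against 12.64 to 12.76 unstimulated). None of the 11 T and NK cell markers passed the filter. Of 11 neutrophil markers 7 were tested, and 6 fell, among them S100a8 (-0.86) and S100a9 (-0.77), while Csf3r rose (1.63); the list mean was 7.87 to 8.11 per array with both and 8.06 to 8.31 unstimulated. Of 12 B and plasma cell markers 6 were tested and all were called, 5 lower and 1 higher. Ighm stood at 12.07 with both and 12.30 unstimulated, and its call was lost without the replicate block (limma adjusted p = 0.489). The means over all 12 were 6.53 to 7.28 and 6.79 to 7.35, which overlapped. Of 10 dendritic cell markers 4 passed and rose, Cd209a, Batf3 (1.91), Bst2 (0.93) and Itgax (0.48). The list means were 7.43 to 7.56 with both and 6.56 to 6.72 unstimulated. Cd209a passed the filter only through the IL-4 plus IL-6 arrays, so it could only be seen to rise. Its means were 5.68 unstimulated, 5.66 with IL-4 and 6.03 with IL-6. Of 14 mast cell, basophil and eosinophil markers 2 passed the filter (Siglecf -1.53 and Ccr3 0.31, whose groups overlapped and whose call was lost without the replicate block, limma adjusted p = 0.0846), of 12 fibroblast markers 1 (Postn, 1.59) and of 10 erythroid and megakaryocyte markers 3, led by Car2 (3.16); their list means per array were 5.06 to 5.22, 5.24 to 5.40 and 6.51 to 6.66 with both cytokines, against 5.15 to 5.27, 4.93 to 5.19 and 6.15 to 6.30 unstimulated. The part of other cells in the differences was not tested. As a sign of RNA quality, the 3' minus 5' log2 difference of Actb was 0.363 ± 0.019 with both cytokines and 0.318 ± 0.0089 unstimulated, and that of Gapdh was 0.023 ± 0.022 and -0.048 ± 0.014, without overlap in either case; its part in the results was not tested.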

How the data were processed

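RNA of bone marrow-derived macrophages was hybridised to 1-colour Affymetrix 3' expression arrays of 22690 probe sets, 1 array per sample. The values used are the log2 intensities the authors deposited, made with RMA (GCOS 1.4 is also named), per the submitters' processing notes; they were not renormalised. The log base is not stated, and the highest value, 15.10, exceeds the natural log of the largest 16-bit intensity (11.09). Array medians lay between 6.95 and 7.03 and arrays correlated at 0.975 to 0.998; for arrays, the number of replicates limits the precision.

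Of the probe sets 20393 have 1 gene in the platform annotation, 691 several and 1606 none; 20364 gene IDs were found in RefSeq. Each gene was represented by its probe set of highest mean. limma 3.58.1 (R 4.3.3) was fitted to the 20 arrays of 4 groups with replicate number as a block, and p-values were adjusted by Benjamini-Hochberg over 7010 genes. Same-numbered arrays of both groups deviated together (r = 0.436 to 0.619, each highest with its own number), so the numbers pair the samples. The fit was tested on simulated data.

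The gene lists and the comparison were chosen with earlier results of these data known, so list counts and medians are descriptions. Genes were named as the 15 largest increases and decreases whose groups did not overlap and up to 4 called genes of the largest difference per list, plus 14 of the cytokine receptor, STAT, cathepsin and ER stress genes. A further 80 genes, among them Ccl17, Ccl22, Irf4, Creld2, Dnajc3, Mcm5, Prc1, Cxcl2, Mrc1 and the cell markers, were named after their values were seen.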

Additional observations from a re-analysis of the deposited data

Results flagged for a closer look

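In 22 of 434 groups of 5 arrays (217 genes named in the text, 2 groups each), 1 array stood apart from the other 4 by more than Dixon's critical value (gap over range above 0.71). Chance alone gives about 1 such group in 20. In 10 of them the array was IL-4 plus IL-6 replicate 1 and in 7 it was IL-4 plus IL-6 replicate 2.

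IL-4 plus IL-6 replicate 1 was high for Il4ra (11.43 against 11.31 to 11.34 in the other 4 arrays of its group), Il1r1 (8.96 against 8.55 to 8.64), Cd40 (9.05 against 8.60 to 8.73), Atf4 (12.06 against 11.85 to 11.89) and Pparg (9.89 against 9.67 to 9.70). It was also high for the secretory route genes Sec23b (11.17 against 11.05 to 11.08), Syvn1 (9.31 against 9.16 to 9.20) and Tmed10 (11.59 against 11.47 to 11.50), and low for Xbp1 (12.51 against 12.69 to 12.74) and Adcy3 (7.94 against 8.24 to 8.35).

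IL-4 plus IL-6 replicate 2 was low for 4 genes of DNA replication, Mcm5 (7.85 against 8.28 to 8.45), Mcm6 (10.32 against 10.69 to 10.84), Rrm2 (9.18 against 9.58 to 9.73) and Tk1 (7.43 against 7.84 to 7.97), and for Lipa (11.97 against 12.10 to 12.14), Ccl22 (6.87 against 7.16 to 7.26) and Itgax (11.60 against 11.76 to 11.79). Unstimulated replicate 2 was high for Pdgfc (6.56 against 5.93 to 5.96) and Scap (9.52 against 9.32 to 9.38) and low for Fdps (9.64 against 9.97 to 10.08). Unstimulated replicate 5 was low for Il4ra (7.54 against 7.98 to 8.10) and Alg12 (7.12 against 7.44 to 7.50).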

How the results depend on the processing

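The counts of called genes moved by over 1.5 times under 3 of the alternatives. With a filter at the 75th percentile 3970 genes were tested instead of 7010. Of these, 3340 were called against unstimulated cells (1668 higher, 1672 lower), 3034 against IL-4 and 3247 against IL-6. With every probe set by itself 10846 probe sets were tested. Of these, 8441 (4361 lower) were called against unstimulated cells, 7472 against IL-4 and 8073 against IL-6. With a difference of at least 1 also required, 623 of the 7010 genes were called (286 higher, 337 lower), 374 against IL-4 and 476 against IL-6. When no filter was applied, 6324 of 12393 genes were called against unstimulated cells (3128 higher, 3196 lower). The share of genes called therefore depends on the filter. Without the replicate block, that is without the pairing by number, 5251 genes were called (2584 higher, 2667 lower), 4544 against IL-4 and 4975 against IL-6; 5249 were called in both fits, 296 only with the block and 2 only without. Fitting only the 10 arrays compared gave 5287, and leaving out each replicate number in turn 5311 to 5414. List medians changed sign for cathepsins under median centring (0.0049) and the 75th percentile filter (0.062), for cathepsin inhibitors without a filter (0.051), and for inflammatory genes without a filter (0.020) and with the 75th percentile filter (0.47). Of 3957 values of named genes under the alternatives 3852 kept their direction and call, 89 lost the call (81 where a difference of 1 was required), 14 gained it and 2 changed direction, Ighm with all 29 arrays (0.22) and Ero1b with the mean of its probe sets (-0.28). The call of Saa3 was lost without replicate 2 (0.30, limma adjusted p = 0.0611), without the block (adjusted p = 0.0550) and with all 29 arrays (0.14, adjusted p = 0.582). The median of all genes was -0.0060, 0.00091 after quantile normalization and 0.030 after median centring. The cause of these changes was not tested. Signals under the filter limit what can be said of weak genes, and 5383 genes were not tested.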
